A study of Mus musculus with 15 samples.

Results

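The genes described here are 9 genes of the postsynaptic scaffold and the dendritic spine, fixed by name, of 55401 genes counted in the hippocampus of mice. They are Dlg4, Shank1, Shank2, Shank3, Homer1, Camk2a, Camk2b, Dbn1 and Cfl1. Hippocampal RNA of 15 aged female mice was sequenced, 1 library per mouse. WT mice, labelled Tg2576 -/-, were the transgene-negative littermates of Tg2576 mice, labelled Tg2576 +/+, which carry human APP with the Swedish mutation under the hamster prion promoter. All mice were 18 to 20 months old and were dosed for 5 weeks with either sesame oil (vehicle) or docosahexaenoic acid (DHA), an omega-3 fatty acid of neuronal membranes, at 450 mg/kg. Of the WT mice, 4 received vehicle and 4 DHA, and of the Tg2576 mice, 4 received vehicle and 3 DHA. The study asked how DHA acts on the hippocampus of these aged mice, and measured memory and spines besides. All 9 genes passed the filter on low counts, which kept 19536 genes for testing.

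Excitatory synapses sit on dendritic spines, small actin-filled protrusions. Beneath the membrane, the postsynaptic density holds glutamate receptors in place through layers of scaffold proteins. Calcium entering through NMDA receptors activates CaMKII, the kinase that starts long-term potentiation, and remodelling of spine actin changes spine size. In this protein network Dlg4 encodes PSD-95, which anchors receptors. Shank1, Shank2 and Shank3 encode the deeper layer that links PSD-95 complexes to the actin cytoskeleton. Homer1 encodes a protein that couples Shank proteins to metabotropic glutamate receptors, and a short form of it is induced by activity. Camk2a and Camk2b encode the main subunits of neuronal CaMKII, of which the beta subunit binds actin. Dbn1 encodes drebrin, which stabilises spine actin, and Cfl1 encodes cofilin, which severs actin filaments.

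Total counts ranged from 17372864 to 46596489 per mouse. App was highest where the labels give the transgene: its CPM (counts scaled by library size and TMM factors) lay between 2076 and 2787 in Tg2576 mice and between 1572 and 1787 in WT mice. Reads of the human transgene can be counted there only where they align to the mouse gene. None of the 10 pan-neuronal markers was at 0 in any mouse, their summed level lying between 6567 and 7437 CPM. Such markers do not tell the hippocampus from other brain regions. The summed level over the mice was 640 to 896 CPM for 5 CA1 markers and 149 to 216 CPM for 5 CA3 markers. For 5 neocortex markers it was 176 to 290 CPM, and the part of neighbouring tissue was not tested. Mitochondrial genes held 1.92 to 2.84% of counts in WT mice and 2.21 to 3.38% in Tg2576 mice. The summed level of 5 choroid plexus markers was uneven: among WT mice it ran from 60.2 to 5797 CPM, among Tg2576 mice it ran from 139.6 to 5130 CPM, and it was 3080 CPM or more in each of the Tg2576 DHA mice. The RNA is of whole hippocampus, so fewer cells of a type and less RNA per cell cannot be told apart.

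The genes lie on 6 chromosomes (GRCm38). Dlg4 (ENSMUSG00000020886.17) is at chr11:70016942-70047522, Camk2b (ENSMUSG00000057897.14) at chr11:5969644-6066362, and Camk2a (ENSMUSG00000024617.16) on chromosome 18. Shank1 (ENSMUSG00000038738.15) is at chr7:44310253-44360572, Shank2 (ENSMUSG00000037541.22) at chr7:144001928-144424494 and Shank3 (ENSMUSG00000022623.17) at chr15:89499623-89560261. Homer1 (ENSMUSG00000007617.18) is at chr13:93299635-93405129, Dbn1 (ENSMUSG00000034675.17) at chr13:55473429-55488111 and Cfl1 (ENSMUSG00000056201.8) at chr19:5490455-5495201. The counts are per gene over all exons, so the isoforms of Homer1 and the Shank genes were not separated. Exons of a gene on the other strand cover 16.5% of the exon bases of Cfl1 (Snx32), 3.22% of those of Shank1 and 2.93% of those of Shank3, and reads there may be lost or shared.

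These transcripts differ in base composition and length, which bears on the offsets used below. The longest Shank3 transcript has 62.4% GC, above 98.5% of the genes tested, and that of Shank1 61.5%. Homer1 lies at the other end with 36.9%, above 1.49% of the genes tested, whose median is 49.6%. Exon lengths ran from 2.84 kb for Cfl1 to 13.3 kb for Dlg4, against a median of 3.69 kb.

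Promoter sequences (250 bases before each start site, RefSeq, GRCm38.p6) were matched by symbol for 6 of the 9 genes, with 9 start sites. Those of Shank3, Dbn1 and Homer1 are shown because Shank3 is the gene with a called difference, Dbn1 is a gene with as many matches and no called difference, and Homer1 differs from both in composition. In Shank3 and Dbn1 the capitals mark the GC box core (GGGCGG, searched on both strands, where matches may abut or overlap). In Homer1, at the first of its RefSeq start sites, which lies within the gene interval given above, they mark TGACGT, a core of the cAMP response element (both strands).
Shank3, chr15:89499358-89499607, plus strand: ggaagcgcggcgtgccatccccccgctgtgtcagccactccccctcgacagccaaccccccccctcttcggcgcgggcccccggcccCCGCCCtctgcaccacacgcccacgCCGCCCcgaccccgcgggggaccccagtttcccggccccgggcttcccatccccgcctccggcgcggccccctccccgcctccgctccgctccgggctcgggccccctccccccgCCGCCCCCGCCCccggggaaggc
Dbn1, chr13:55488077-55488326, minus strand: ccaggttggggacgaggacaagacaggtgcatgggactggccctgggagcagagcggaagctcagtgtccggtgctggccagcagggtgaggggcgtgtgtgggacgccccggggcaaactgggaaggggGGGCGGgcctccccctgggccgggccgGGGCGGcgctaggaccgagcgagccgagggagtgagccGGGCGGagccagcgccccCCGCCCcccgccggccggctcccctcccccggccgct
Homer1, chr13:93303507-93303756, plus strand: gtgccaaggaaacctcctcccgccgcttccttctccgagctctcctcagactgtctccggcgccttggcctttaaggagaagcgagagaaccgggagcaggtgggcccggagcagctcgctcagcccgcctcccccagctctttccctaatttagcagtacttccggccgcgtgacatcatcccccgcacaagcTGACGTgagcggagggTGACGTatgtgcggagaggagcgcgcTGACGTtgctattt

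The Shank3 window had 82.4% GC and 4 GC box cores, and the Dbn1 window 77.2% GC and 4 cores. The Camk2b window had 3 cores. Of all 32817 promoter windows, 32.7% held at least 1 GC box core and 8.47% held 3 or more. The Homer1 window held 3 TGACGT matches and no GC box core. At least 1 such match was in 6.46% of all windows, and 3 or more in 0.152%. A match in these letters is a description and not a site.

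The 9 genes were expressed over a wide range of levels. Per kb of exon, the order of the mean levels over the 15 mice was Camk2a (562 ± 71.2 CPM per kb, SD), Cfl1 (230.3 ± 25.6), Camk2b (193 ± 25.9), Dbn1 (89.7 ± 8.29), Dlg4 (68.5 ± 7.28), Shank1 (57.8 ± 7.86), Shank3 (36.6 ± 5.64), Shank2 (17.9 ± 2.62, SD) and Homer1 (7.27 ± 1.28, n = 15 for each). Camk2a was thus above 99.8% of the genes tested on this scale, and Homer1 above 68.4%. The ranges over mice overlapped for 4 neighbours in this order. These were Cfl1 and Camk2b (Cfl1 higher in 12 of 15 mice), Dbn1 and Dlg4 (15 of 15), Dlg4 and Shank1 (14 of 15), and Shank1 and Shank3 (15 of 15).

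**Figure D1:**
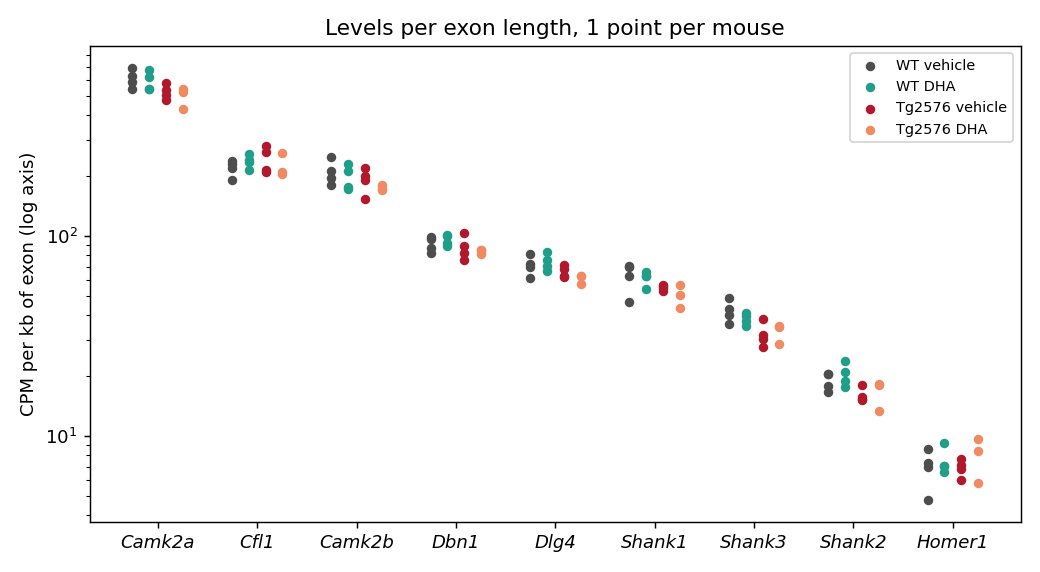
Level of each gene in CPM per kb of exon (log axis), with 1 point per mouse and the 4 groups in color. Camk2a lies above the other genes in every mouse (430.7 to 694 CPM per kb), and Homer1 below them (4.77 to 9.58).

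Shank3 was the gene that differed between genotypes under vehicle. Its level was 372.3, 452.5, 398.2 and 334.6 CPM in the WT vehicle mice and 356.0, 282.9, 294.6 and 256.5 CPM in the Tg2576 vehicle mice. The highest Tg2576 mouse thus lay above the lowest WT mouse, and the other 3 Tg2576 mice lay below every WT mouse. The mean fell from 389 ± 49.5 to 297.5 ± 42.1 CPM (SD, n = 4 each), a log2 fold change of -0.39 (SE 0.11, 95% interval -0.62 to -0.16), or -23.6% (-34.9 to -10.4%). It passed the study's threshold of an unadjusted p of 0.01 in edgeR's quasi-likelihood test (p = 0.0024), while the exact two-sided permutation test of its log2 CPM gave p = 0.0571, where 0.0286 is the smallest that 4 against 4 mice allow. It did not pass the Benjamini-Hochberg adjustment over all genes (edgeR adjusted p = 0.217, and 0.0686 to 0.355 over the alternatives with all mice). The threshold was passed in 13 of 15 fits with 1 mouse left out, and not without WT vehicle mouse 2 (log2 fold change -0.30) or without Tg2576 vehicle mouse 4 (-0.31).

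The share of mitochondrial counts ran opposite to Shank3 among these mice. The Tg2576 vehicle mouse with the highest Shank3 level had a share of 2.21% and the other 3 had 3.18 to 3.38%, while the WT vehicle mouse with the lowest Shank3 level had 2.84% and the others 1.92 to 2.18%. Markers of dentate granule cells were, as a sum, lower in Tg2576 vehicle mice, as Shank3 was. Their summed level was 335.6 to 437 CPM in WT vehicle and 289 to 321 CPM in Tg2576 vehicle mice, with 2 of 6 markers lower at p under 0.01 (Prox1 and Trpc6) and a median log2 fold change of -0.46. The summed level of 5 CA3 markers was 189.9 to 216 CPM in WT vehicle and 164 to 177 CPM in Tg2576 vehicle mice (1 of 5 lower), and that of 6 interneuron markers 765 to 1045 and 700.5 to 772 CPM (2 of 6 lower). Of all genes tested, 1.93% were lower at p under 0.01. Log2 fold changes above 0, short of that threshold, were those of C1ql2 (0.008, dentate), Coch (0.76) and Iyd (0.05, both CA3), Vip (0.39) and Pvalb (0.07, both interneuron). The sums of CA1 markers (709 to 816 and 640 to 808 CPM) and subiculum markers (153 to 226 and 127 to 205 CPM) overlapped. The 10 pan-neuronal markers had a median of -0.06, with 1 lower. No marker was at 0 in any mouse. The part of these in the Shank3 result was not tested.

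**Figure D2:**
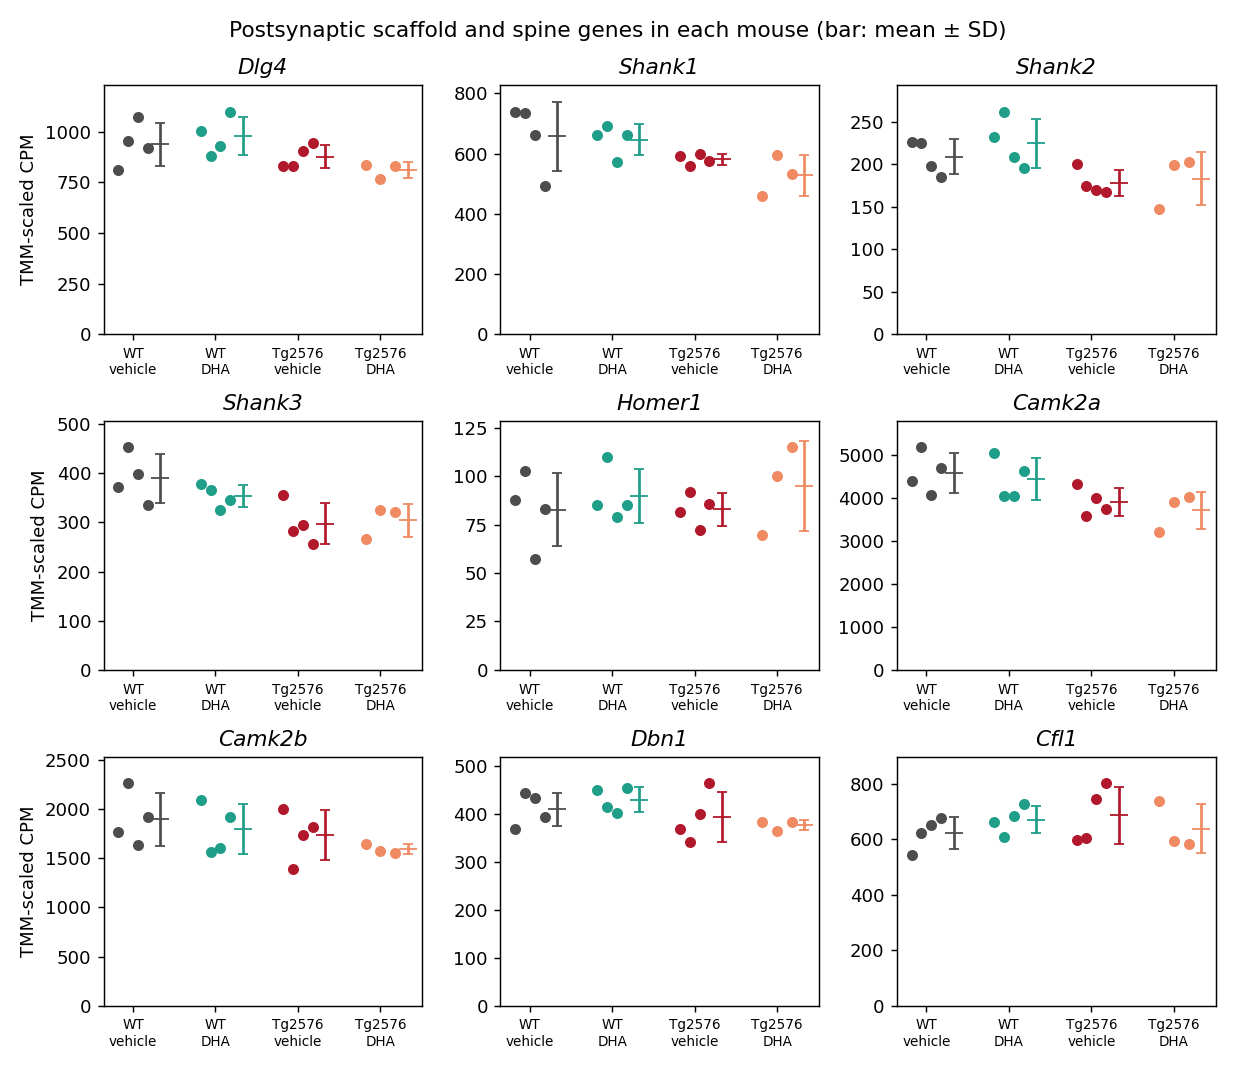
TMM-scaled CPM of each gene (vertical axes from 0), with 1 point per mouse and the mean ± SD beside each group (WT mice on the left, Tg2576 mice on the right, 4 mice per group and 3 in the last). For Shank3, 3 of 4 Tg2576 vehicle mice lie below all WT vehicle mice.

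The other Shank genes had smaller differences under vehicle, and did not pass. Shank2 was at 226.3, 225.4, 198.2 and 184.8 CPM in WT vehicle mice and at 200.8, 174.8, 169.5 and 167.7 CPM in Tg2576 vehicle mice. Its groups overlapped in that 1 Tg2576 mouse lay above 2 WT mice (log2 fold change -0.23, SE 0.115, edgeR adjusted p = 0.493, exact permutation p = 0.0857). Shank1 was at 739, 734, 661 and 492.8 CPM in WT vehicle mice and at 591, 559.6, 599 and 575 CPM in Tg2576 vehicle mice. The WT mouse at 492.8 CPM lay below all 4 Tg2576 mice (log2 fold change -0.18, SE 0.114, edgeR adjusted p = 0.609, exact permutation p = 0.286). With that mouse, WT vehicle mouse 4, left out, Shank1 was at -0.29 and passed at p under 0.01 in edgeR.

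Among the kinase genes, Camk2a was at 4392, 5181, 4066 and 4706 CPM in WT vehicle and at 4322, 3581, 4007 and 3757 CPM in Tg2576 vehicle mice. Of the Tg2576 mice, 3 lay below every WT mouse, and the log2 fold change was -0.23 (SE 0.104, 95% interval -0.45 to -0.01, edgeR adjusted p = 0.441, exact permutation p = 0.0571), short of the threshold. Camk2b had a mean of 1895 ± 269.5 CPM in WT vehicle and 1734 ± 255 CPM in Tg2576 vehicle mice (SD, n = 4 each), with overlapping groups (log2 fold change -0.13, edgeR adjusted p = 0.753).

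For the remaining genes the 95% interval under vehicle included 0. Dlg4 had a log2 fold change of -0.10 (95% interval -0.29 to 0.10), Dbn1 of -0.06 (-0.25 to 0.14), Homer1 of 0.0038 (-0.35 to 0.36) and Cfl1 of 0.14 (-0.09 to 0.38). The edgeR adjusted p of these 4 genes was 0.682 or more. A difference of the size seen for Shank3 lies outside all 4 of these intervals. In all, 7 of 9 genes were below 0 (of which Dlg4 turned to 0.05 with an offset for gene length), with a median of -0.13, against a median of 0.0003 over all genes tested. The count with a p under 0.01 was 1 of 9, where 3.09% of all genes tested passed (1.93% lower), and the groups of 0 of the 9 genes did not overlap (5.16% of all genes tested).

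**Figure D3:**
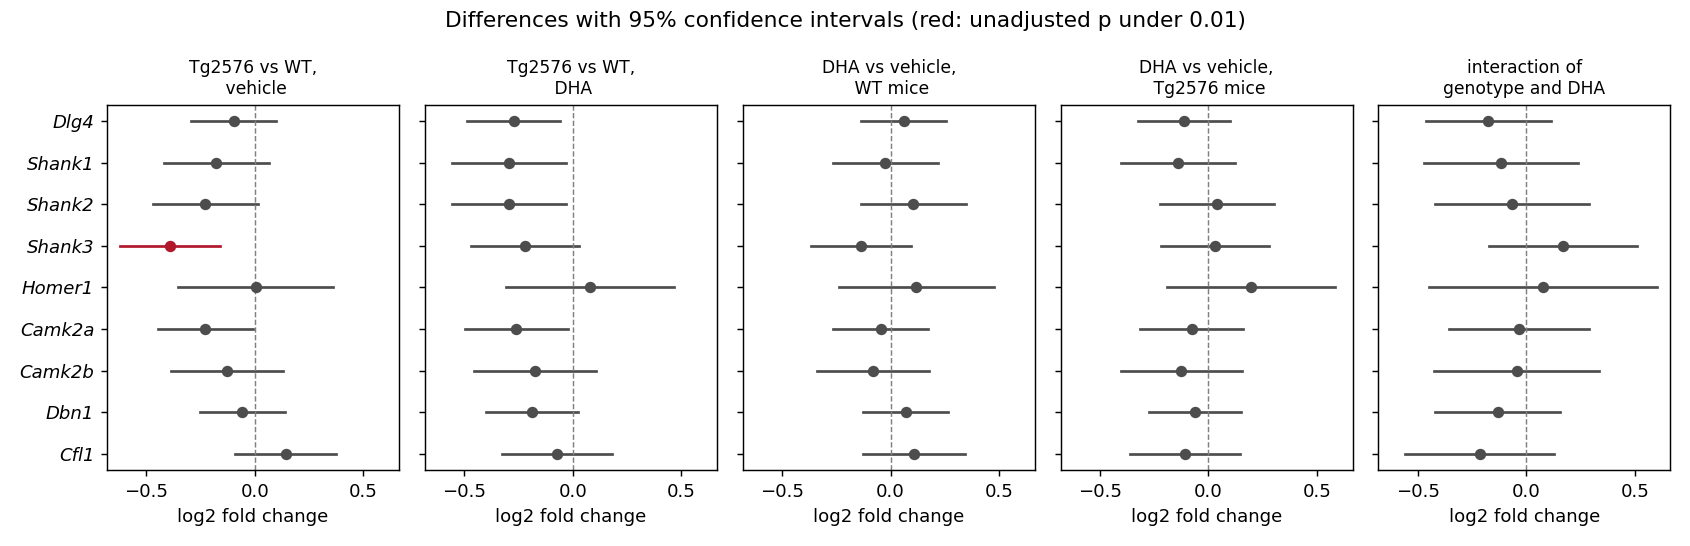
Log2 fold change (points) and 95% confidence interval (lines) of the 9 genes in the 4 comparisons between groups and in the interaction, from edgeR. Shank3 under vehicle (-0.39) is drawn in red as the value with a p under 0.01.

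Under DHA, 8 of the 9 genes had a log2 fold change below 0 in Tg2576 against WT mice, and none passed at p under 0.01 (edgeR 0 of 9, DESeq2 0 and limma-voom 0). The median log2 fold change was -0.22, against -0.0035 over all genes tested. Of the 9 genes, 4 had an unadjusted p under 0.05, as had 1341 of the 19536 genes tested, and the smallest adjusted p was 0.627. Of all genes tested, 1.75% passed at p under 0.01 (0.686% lower). Groups that did not overlap were seen for 4 genes (Dlg4, Shank3, Camk2a and Dbn1), each lower in Tg2576 mice, where 8.56% of all genes tested did not overlap and 4.66% did so with Tg2576 lower.

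Dlg4 had the lowest p of these. It was at 1004, 881, 932 and 1100.0 CPM in WT DHA mice and at 835, 764.8 and 833 CPM in Tg2576 DHA mice. All 3 Tg2576 mice lay below all 4 WT mice, with a log2 fold change of -0.27 (SE 0.101, 95% interval -0.48 to -0.06, edgeR adjusted p = 0.627). The exact permutation test gave p = 0.0571, the smallest that 3 against 4 mice allow, so this design cannot reach 0.05. Dbn1, the drebrin gene, was at 450.3, 415, 403 and 455 CPM in WT DHA mice and at 384, 366 and 383 CPM in Tg2576 DHA mice. Its Tg2576 mice also lay below all WT mice, closely grouped (log2 fold change -0.19, SE 0.1005, edgeR adjusted p = 0.766).

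Camk2a was at 5055, 4062, 4040 and 4635 CPM in WT DHA mice and at 3215, 3904 and 4026 CPM in Tg2576 DHA mice, where the highest Tg2576 mouse was 4026 and the lowest WT mouse 4040. The log2 fold change was -0.26 (SE 0.113, edgeR adjusted p = 0.697). Shank3 was at 378, 365, 326 and 347 CPM in WT DHA mice and at 266, 325 and 321.5 CPM in Tg2576 DHA mice (log2 fold change -0.22, SE 0.119, edgeR adjusted p = 0.769). The gap between its groups was as narrow, between 325.0 and 326.2 CPM. The fold changes of Shank1 (-0.29, edgeR adjusted p = 0.690) and Shank2 (-0.29, edgeR adjusted p = 0.690) were larger, but their groups overlapped. With an offset for gene length both passed at p under 0.01 in edgeR (each at -0.31).

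Camk2b (-0.17), Cfl1 (-0.07) and Homer1 (0.08) had overlapping groups under DHA and an edgeR adjusted p of 0.844 or more. Homer1 was the gene with the widest spread, with 69.7, 100.2 and 115 CPM in Tg2576 DHA mice and 78.9 to 110.1 CPM in WT DHA mice. The microglial markers Csf1r (log2 fold change 0.42), Cx3cr1 (0.49) and P2ry12 (0.51) were higher in Tg2576 mice under DHA at p under 0.01. The dentate sum was 265 to 424 CPM in WT DHA and 239 to 271.5 CPM in Tg2576 DHA mice, and the pan-neuronal sum 6875 to 7426 and 6734 to 7129 CPM. Mitochondrial genes held 1.94 to 2.51% of counts in WT DHA mice and 2.72 to 2.81% in Tg2576 DHA mice, without overlap. The part of these, and of the choroid plexus sums given above, in the differences was not tested.

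DHA itself gave no called difference among the 9 genes. In WT mice the log2 fold changes of DHA against vehicle lay between -0.14 (Shank3) and 0.12 (Homer1), with 95% intervals reaching from -0.37 to 0.48. In edgeR 0 of 9 had a p under 0.01 and 0 a p under 0.05 (DESeq2 and limma-voom 0 at 0.01), where 1.38% of all genes tested passed at 0.01 and 5.02% did not overlap. In Tg2576 mice they lay between -0.14 (Shank1) and 0.20 (Homer1), with intervals from -0.40 to 0.58, again with 0 of 9 under 0.01 and 0 under 0.05 in edgeR (DESeq2 and limma-voom 0 at 0.01), where 0.353% of all genes tested passed and 3.21% did not overlap. These bounds are the outermost over the 9 genes and are not limits of detection. With 3 or 4 mice per group, differences inside the interval of a gene remain possible for it. Groups overlapped for every one of the 9 genes in both comparisons. Of the 19536 genes tested, 1157 had an unadjusted p under 0.05 for DHA in WT mice and 618 in Tg2576 mice.

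Shank3 showed what this means for the gene that differed by genotype. Its mean was 354 ± 22.6 CPM in WT DHA mice, with a log2 fold change of -0.14 against WT vehicle (95% interval -0.37 to 0.09). In Tg2576 mice it was 304 ± 33.2 CPM under DHA (n = 3), a log2 fold change of 0.03 against vehicle (-0.22 to 0.28). The smaller genotype difference of Shank3 under DHA (-0.22) than under vehicle (-0.39) was not a tested change in itself: the interaction was 0.17 (SE 0.161, 95% interval -0.17 to 0.51, edgeR adjusted p = 0.855). Over the 9 genes the interaction lay between -0.21 (Cfl1) and 0.17 (Shank3), with intervals from -0.56 to 0.60. It passed for 0 of 9 genes at p under 0.01 and 0 at p under 0.05 in edgeR (DESeq2 and limma-voom 0 at 0.01), against 0.829% of all genes tested at 0.01. An unadjusted p under 0.05 for the interaction was seen for 1001 of the 19536 genes tested. The genotype comparisons under vehicle and under DHA share no mice, while each shares mice with the DHA comparisons.

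Balances between related genes were also compared, as ratios per exon length within a mouse, in 12 exact two-sided permutation tests. The ratio of Camk2a to Camk2b was 2.97 ± 0.113 in WT vehicle, 3.04 ± 0.113 in WT DHA, 2.79 ± 0.271 in Tg2576 vehicle (SD, n = 4 each) and 2.86 ± 0.418 in Tg2576 DHA mice (n = 3). The 2 kinase subunits thus kept ratios whose ranges overlapped in all 4 comparisons. The share of Shank3 in the sum of the 3 Shank genes was 34.3 ± 2.43% in WT vehicle and 31.01 ± 2.36% in Tg2576 vehicle mice (SD, n = 4 each, exact p = 0.0571, adjusted p = 0.343). Under DHA the direction was the opposite, with 31.99 ± 0.939% in WT (n = 4) and 33.1 ± 0.864% in Tg2576 mice (n = 3, exact p = 0.171, adjusted p = 0.514). The ratio of Cfl1 to Dbn1, the severing against the stabilising actin protein, was 2.41 ± 0.217 in WT vehicle and 2.76 ± 0.164 in Tg2576 vehicle mice (exact p = 0.0571, adjusted p = 0.343). Under DHA it was 2.47 ± 0.173 in WT and 2.68 ± 0.336 in Tg2576 mice (exact p = 0.400, adjusted p = 0.686). None of the 12 tests passed at 0.05. Those with the 3 Tg2576 DHA mice could not, since 0.0571 is the smallest exact p that 3 against 4 mice allow. For 4 against 4 mice it is 0.0286 before adjustment. The tests therefore do not show that the balances were equal.

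The wider lists of the same pathway were mixed in direction. Of 24 scaffold partners, 22 had a log2 fold change below 0 in Tg2576 against WT mice under vehicle (median -0.21), and 4 of 24 fell at p under 0.01 with 0 rising, where 3.09% of all genes tested passed in either direction. Homer2, another Homer family scaffold, had the lowest p and fell from 68.9 ± 14.3 to 44.4 ± 5.90 CPM (SD, n = 4 each, log2 fold change -0.64, SE 0.142, edgeR adjusted p = 0.158). Dlg3, which encodes the PSD-95 relative SAP102, fell from 264 ± 14.2 to 217 ± 4.97 CPM (SD, n = 4 each, log2 fold change -0.28, edgeR adjusted p = 0.170). Tanc1, a scaffold that binds PSD-95, was at -0.45 and Sipa1l1, a spine-enriched regulator of Rap signalling, at -0.38. Cnksr2 (-0.44, edgeR adjusted p = 0.355) did not pass. None of the adjusted p values of the list was under 0.05.

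In the CaMKII and calmodulin network (19 genes, median 0.05 under vehicle), 2 genes fell and 1 rose at p under 0.01 (1 gene passed with the length offset). The share of all genes tested was 3.09% in either direction and 1.93% lower. Those that fell were Camkk2 (-0.30, edgeR adjusted p = 0.220), an upstream kinase of CaMKI and CaMKIV, and Camk4 (-0.49, edgeR adjusted p = 0.292), the nuclear CaM kinase. The gene that rose was Camk2n2, which encodes an inhibitor of CaMKII, from 70.7 ± 5.40 to 91.4 ± 13.6 CPM (SD, n = 4 each, log2 fold change 0.37, edgeR adjusted p = 0.290). The other inhibitor gene, Camk2n1, was at 0.38 (edgeR adjusted p = 0.378) and Camk1d at -0.30 (edgeR adjusted p = 0.496). Camk2n2 also rose with DHA in WT mice (0.41, edgeR adjusted p = 0.560). That comparison shares the WT vehicle mice, and the level was 94.1 ± 9.68 CPM in WT DHA and 86.1 ± 14.5 CPM in Tg2576 DHA mice.

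Of 30 spine actin regulators, 3 fell under vehicle at p under 0.01 and 0 rose, with a median of -0.04 and 16 of 30 below 0. Of all genes tested, 3.09% passed in either direction and 1.93% lower. Tiam1, which activates Rac1, fell from 158 ± 6.25 to 118 ± 11.1 CPM (SD, n = 4 each, log2 fold change -0.43, edgeR adjusted p = 0.170). Cyfip1, a subunit of the WAVE actin-nucleation complex, was at -0.42 (edgeR adjusted p = 0.198) and Kalrn, which encodes the spine exchange factor kalirin, at -0.37 (edgeR adjusted p = 0.298). Pfn2 (0.17, edgeR adjusted p = 0.425) and Cfl2, the muscle-type cofilin gene (0.21, edgeR adjusted p = 0.435), did not pass.

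Under DHA the same lists held fewer called genes, 5 of 73 against 10 of 73 under vehicle. The share of all genes tested that passed was lower as well, 1.75% against 3.09%, with 3 Tg2576 mice under DHA. Of the scaffold partners, 3 of 24 were lower in Tg2576 mice at p under 0.01, against 1.75% of all genes tested, and they were Synpo (-0.38), Baiap2 (-0.41) and Dlgap3 (-0.30), with a smallest adjusted p of 0.474 (edgeR). The CaMKII network had 1 of 19 (Camkk2, -0.36) and the actin regulators 1 of 30 (Cfl2, 0.30, higher, where the list had 0 with limma-voom, without a filter, with the replicate block, with the GC offset alone or with the block, and with only the 2 groups compared, and 2 with the length offset). These were named after their values were seen, apart from Camkk2, Cfl2 and Synpo. DHA in WT mice gave Tanc1 (-0.38, lower, with 0 of its list under the GC offset) beside Camk2n2, where 1.38% of all genes tested passed. DHA in Tg2576 mice gave 0 of the 73 genes of the 3 lists at p under 0.01 in edgeR, where 0.353% of all genes tested passed. Of the 73, 3 had an unadjusted p under 0.05, where 618 of the 19536 genes tested did, and DESeq2 and limma-voom gave 0 at 0.01. The interaction passed for 0 of the 73 genes at p under 0.01 in edgeR, where 0.829% of all genes tested passed. Of the 73, 8 had an unadjusted p under 0.05, where 1001 of the 19536 genes tested did, and at 0.01 DESeq2 gave 1 and limma-voom 0. The lowest p values of the interaction in each list were for Homer2 (0.57), Begain (-0.42) and Synpo (-0.30) among the scaffold partners. In the CaMKII network they were for Camk2n2 (-0.50), Camk2n1 (-0.56) and Camkk1 (-0.27), and among the actin regulators for Cyfip1 (0.40), Actb (-0.46) and Arpc3 (-0.36). The adjusted p of each was 0.845 (edgeR).

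**Figure D4:**
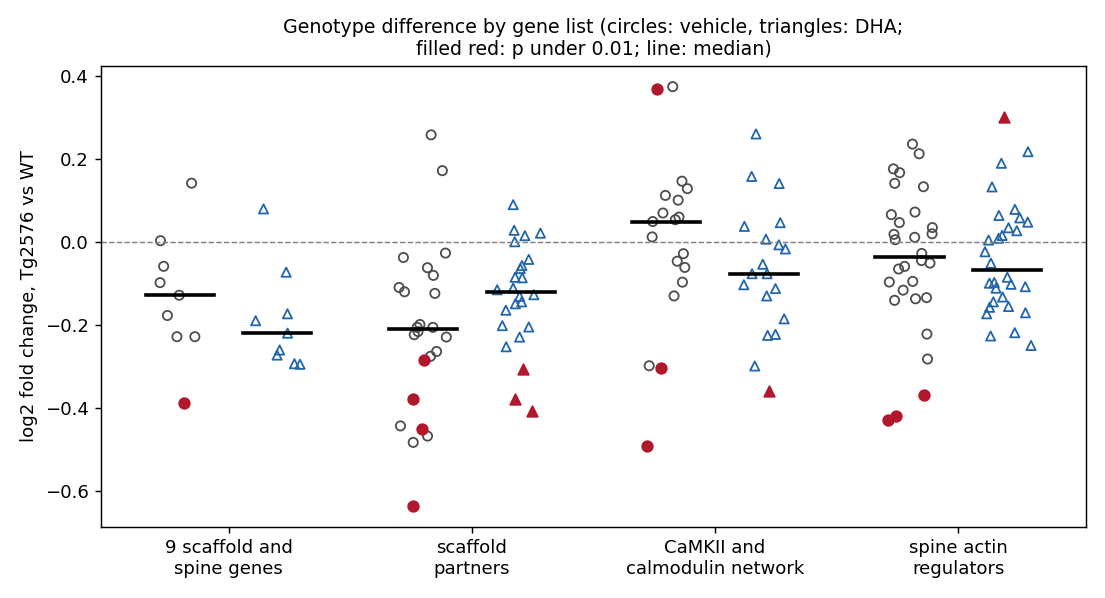
Log2 fold change of Tg2576 against WT mice for the 9 genes and the 3 pathway lists, under vehicle (circles) and under DHA (triangles), with medians as lines and genes with p under 0.01 filled in red. The scaffold partners have their median at -0.21 under vehicle and -0.12 under DHA.

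Within groups, the 9 genes did not move as 1 block from mouse to mouse. Over 36 pairs of genes, correlations of log2 CPM after removing the group means (n = 15 mice) had a median of 0.233, with 24 above 0 and 12 below. These correlations were computed after the data were seen, with 100000 permutations of mice within groups and adjustment over the 36 pairs, and 5 pairs passed at an adjusted p of 0.05. Dlg4 and Dbn1 rose and fell together (Pearson r = 0.774, permutation p = 0.0006, adjusted p = 0.0108, Spearman rho = 0.796, permutation p = 0.0031, and r = 0.755 without the 2 mice farthest from the median). So did Camk2a and Camk2b (r = 0.754, permutation p = 0.0031, adjusted p = 0.0372, rho = 0.696, permutation p = 0.0108, and r = 0.859 without the 2 farthest mice). The same held for Shank2 and Shank3 (r = 0.742, permutation p = 0.0045, adjusted p = 0.0372, rho = 0.746, permutation p = 0.0043, and r = 0.744) and for Dlg4 and Cfl1 (r = 0.697, permutation p = 0.0052, adjusted p = 0.0372, rho = 0.754, permutation p = 0.0073, and r = 0.590).

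Shank2 and Cfl1 went in opposite directions. Their r was -0.820 (permutation p = 1e-05, the smallest that 100000 permutations can give, adjusted p = 0.00036, rho = -0.807, and r = -0.768 without the 2 farthest mice). The transcripts differ in length, 11.1 against 2.84 kb, and with an offset for gene length in each mouse r was -0.469 (adjusted p = 0.335, permutation). With the same offset Shank2 and Shank3 were at 0.4095 (adjusted p = 0.408, permutation), and Dlg4 and Cfl1 (0.842) was the 1 pair of 36 that passed. With an offset for GC content 9 pairs passed, and Dlg4 with Dbn1 was at 0.518 (adjusted p = 0.252, permutation). Among the pairs that passed with it were Shank2 and Cfl1 (-0.8645, adjusted p = 0.00036, permutation) and Shank2 and Shank3 (0.8748, adjusted p = 0.0072, permutation). For these 2 pairs the 2 offsets thus differed. These offsets were chosen after seeing the data.

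**Figure D5:**
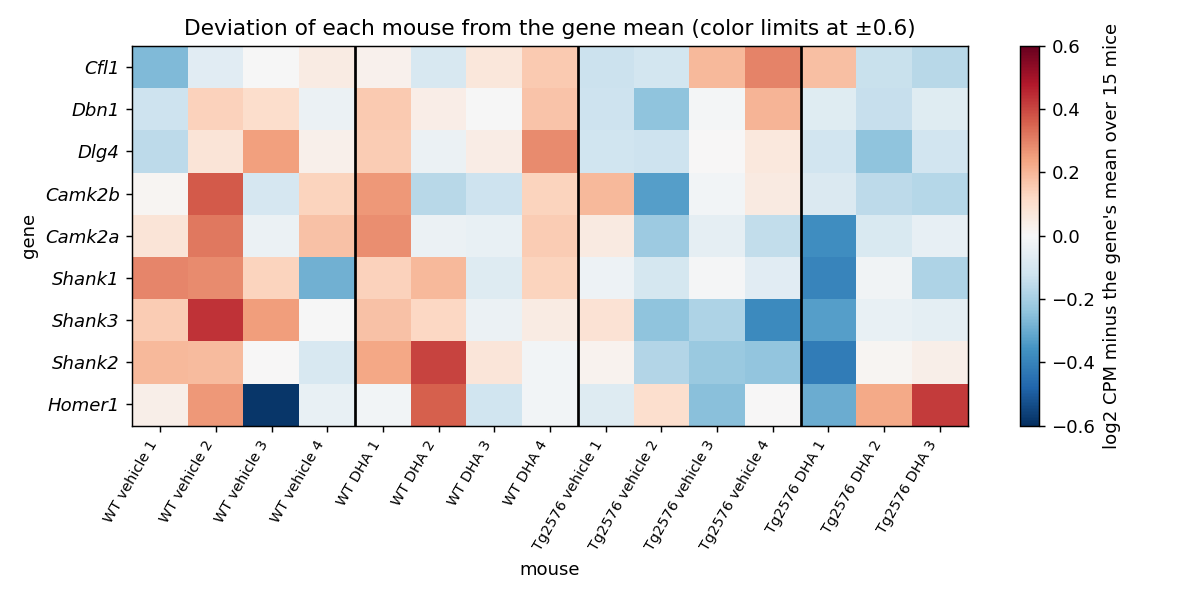
Log2 CPM of each gene in each mouse minus the mean of that gene over the 15 mice (color), with mice in columns ordered by group and genes in rows. The lowest value is that of Homer1 in WT vehicle mouse 3 (-0.586), and Tg2576 DHA mouse 1 is low for the Shank genes and Camk2a but not for Cfl1.

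The mean of the centred log2 CPM over the 9 genes lay between -0.0088 and 0.222 in WT vehicle, -0.0244 and 0.156 in WT DHA, -0.161 and -0.0133 in Tg2576 vehicle and -0.212 and -0.0401 in Tg2576 DHA mice. The ranges of the genotypes did not overlap within a treatment, while those of WT DHA and Tg2576 vehicle mice did. The gaps were narrow: the lowest WT vehicle mouse was at -0.0088 and the highest Tg2576 vehicle mouse at -0.0133. For the DHA mice these values were -0.0244 and -0.0401. Taken singly, 5.16% of all genes tested had vehicle groups without overlap, and 0 of the 9 genes had. With DHA the share was 8.56%, and 4 of the 9 genes were among them. Whether other sets of 9 genes would separate the genotypes was not tested. Among the genes whose log2 CPM over the 15 mice was most like that mean were Sugp2 (Pearson r = 0.936), Crtc1 (0.9304), Mcm3ap (0.926) and Sgsm2 (0.921). Crtc1 encodes a coactivator of CREB. These values describe likeness over mice that share group, depth and composition, and were given no test.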

How the data were processed

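RNA of whole hippocampus from 15 female mice was sequenced on 1 lane. The labels name a SMARTER kit and the study's methods name TruSeq Stranded mRNA. The deposited values are raw counts per gene, which the authors made with STAR 2.6.1c and featureCounts 1.6.0 (exons, GENCODE vM25, GRCm38). The use of strand is not given in the sources used here. The deposited files also give exon length. No column was left unmapped.

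Symbols came from GENCODE M21 by gene ID (55141 of 55401 matched). In edgeR 4.0.16 (R 4.3.3), a minimum count of 10 (filterByExpr) kept 19536 genes. TMM factors were 0.961 to 1.03 and the biological coefficient of variation 20.1%. A robust quasi-likelihood fit over all 15 mice, with 1 coefficient per group, gave 5 two-sided comparisons, called at an unadjusted p of 0.01 as in the study, with Benjamini-Hochberg adjusted p over all genes tested. Log2 CPM used a prior count of 2. Dividing a log2 fold change by the root of its F gave its SE. Intervals are at 95%. Mice were the replicates. Counting error is small against the spread between mice at these depths. The fit was tested on simulated data.

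The genes, the lists of partners and the markers were chosen with earlier results of these data known. Named genes were the 9 genes, App as a label check, the 5 lowest p values under vehicle and 3 lowest in the interaction in each pathway list, the 5 genes most like the mean of the 9, and markers whose list moved with a result. Other genes named were picked after their values were seen. Some items under this rule are not reported here. Alternatives were DESeq2 1.42.0, limma-voom (limma 3.58.1), no TMM factors, no filter, only the 2 groups compared, a replicate block, offsets for GC and gene length (lowess span 0.3) and each mouse left out. Figures used Python 3.11.15 and matplotlib 3.10.9.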

Additional observations from a re-analysis of the deposited data

How the results depend on the processing

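Under vehicle the count of the 9 genes with p under 0.01 was 1 in each of the 9 alternatives that kept all mice, namely Shank3 with log2 fold changes from -0.42 to -0.29, and ranged from 0 to 2 with 1 mouse left out (0 without WT vehicle mouse 2 or Tg2576 vehicle mouse 4, and 2 without WT vehicle mouse 4). Under DHA it was 2 with the length offset (Shank1 and Shank2) and ranged from 0 to 1 with 1 mouse left out (1 without WT vehicle mouse 4 for Shank1 at -0.29, and 1 without WT DHA mouse 2 for Dlg4 at -0.32). It was 0 for both DHA comparisons and for the interaction in every alternative run.

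Replicate numbers did not pair the mice: correlations of same-numbered deviations from the group means ran from -0.244 to 0.213. With the replicate block the counts over the 9 genes were 1 under vehicle and 0 in the other comparisons, and those over all genes tested were 661 (604 without it) and 246 (342) for genotype, 311 (270) and 54 (69) for DHA, and 116 (162) for the interaction.

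Over all genes tested, counts moved by more than 1.5 times as follows. Genotype under DHA gave 189 with the GC offset and replicate block. DHA in WT mice gave 431 with only the 2 groups. DHA in Tg2576 mice gave 126 with DESeq2, 126 without a filter, 105 with the length offset and 29 with only the 2 groups. The interaction gave 247 with DESeq2, 289 without a filter and 96 with the GC offset and replicate block. With 1 mouse left out the ranges were 312 to 965, 190 to 460, 156 to 331, 53 to 312 and 87 to 527, in the order above, the highest being without Tg2576 vehicle mouse 1 under vehicle and without Tg2576 DHA mouse 1 for DHA in Tg2576 mice and the interaction. In the pathway lists, counts in these comparisons moved by at most 2 genes, except the scaffold partners under DHA, which gave 0 with the GC offset and replicate block (3 as reported).

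Log2 fold changes that changed sign were all short of p under 0.01. Under vehicle they were Dlg4 with the length offset (0.051), and Homer1 with no filter (-0.0035), the GC offset (-0.0116) and the GC offset with the block (-0.00841). Under DHA they were Homer1 with the GC offset (-0.13) and with the block added (-0.0929), and Cfl1 with both (0.0024). For DHA in WT mice, Shank1 was at 0.0611 and Camk2a at 0.0085 with the length offset. For DHA in Tg2576 mice, Shank2 was at -0.0114 with the block and -0.026 with the length offset, Shank3 at -0.0139 and -0.0136, and Dbn1 at 0.0177 with the GC offset and block. For the interaction, the GC offset gave Shank1 0.0453, Shank2 0.0159, Homer1 -0.12, Camk2a 0.0213 and Camk2b 0.0195, the GC offset with the block gave Homer1 -0.0845, Camk2a 0.0207, Camk2b 0.046 and Dbn1 0.0157, and the length offset gave Homer1 -0.10. The cause was not tested.

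With 1 mouse left out the sign also changed, with these ranges. Under vehicle, Homer1 ran from -0.14 to 0.14 and Dbn1 from -0.13 to 0.0049. Under DHA, Homer1 ran from -0.0778 to 0.27. For DHA in WT mice, Dlg4 ran from -0.0031 to 0.13, Shank1 from -0.14 to 0.0386, Homer1 from -0.0218 to 0.24, Camk2a from -0.10 to 0.0172 and Camk2b from -0.15 to 0.0135. For DHA in Tg2576 mice, Shank2 ran from -0.0383 to 0.18, Shank3 from -0.0381 to 0.13, Camk2a from -0.14 to 0.0233 and Dbn1 from -0.12 to 0.0225. For the interaction, Shank2 ran from -0.14 to 0.0613, Homer1 from -0.0799 to 0.25, Camk2a from -0.0976 to 0.0556 and Camk2b from -0.14 to 0.031. Leaving out 1 mouse of a group of 3 leaves 2, so these fits rest on the spread shared by all groups.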
